A study of Mus musculus with 32 samples.

Results

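The cyclin-dependent kinase inhibitor genes of the mouse were described across 16 ChIP-seq peak lists of *MLL-AF9* leukemia. The members were chosen by name. They are the INK4 genes *Cdkn2a*, *Cdkn2b*, *Cdkn2c* and *Cdkn2d* and the CIP/KIP genes *Cdkn1a*, *Cdkn1b* and *Cdkn1c*, which makes 7 of the 21938 protein-coding genes on chromosomes 1 to 19, X and Y. All 7 were found in the annotation.

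Histone marks were profiled in bone marrow of mice with terminal primary leukemia. *Kat2a* Flox/Flox donors were either Mx1-Cre negative (WT) or carried Mx1-Cre+/- (KO), and donors of both genotypes received pIpC, which switches on the interferon-responsive Mx1 promoter and so the Cre recombinase. Marrow was taken 4 to 6 weeks later, depleted of lineage-positive cells, transduced with a retrovirus carrying the *MLL-AF9* fusion and given to lethally irradiated recipients. Leukemic marrow of 5 WT and of 4 KO animals was pooled, and each pool was precipitated in replicates 1 and 2 with antibodies against H3K4me3, H3K9ac, H3K27ac and H3K4me1. The labels give 5000000 cells per condition for H3K4me3 and H3K9ac and 500000 for H3K27ac and H3K4me1. Both replicates of a genotype come from the same animals, so their spread is technical and does not include differences between leukemias.

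INK4 proteins bind the kinases Cdk4 and Cdk6 and keep cyclin D from activating them, whereas CIP/KIP proteins bind whole cyclin-kinase complexes, above all those of Cdk2. Both families hold the retinoblastoma protein in its active state and cells in G1, and several members are induced by stress, by differentiation or in quiescent stem cells. H3K4me3 marks promoters, H3K4me1 marks enhancers, and acetylation of H3K9, to which the acetyltransferase Kat2a contributes, and of H3K27 is found at active elements.

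A promoter was the stretch from 1 kb upstream to 500 bp downstream of any annotated transcription start site. It was called acetylated where an H3K9ac or H3K27ac peak overlapped it, non-acetylated where only H3K4me3 or H3K4me1 did, and unmarked where no peak did. The strength of a peak is the authors' fold enrichment over background at its summit, and the strongest peak stands for a promoter. Fold enrichments of single libraries are given as listed, before centring. All listed peaks were used, and the lists hold peaks beyond the q-value limit that the study's methods name. The lists hold no read counts, so depth is unknown, and a promoter without a peak may lie below what a library could detect. The 4 H3K4me3 lists held 15685 to 23297 peaks and the 4 H3K9ac lists 27657 to 33605. In replicate 1 of H3K27ac and H3K4me1 the median peak was 48 or 49 bp wide and at most 13 peaks of a list had a q-value of at most 0.05. Both marks are therefore described from replicate 2, which gives 1 library per genotype and no test. The promoter states and the patterns over 16 libraries still count the replicate 1 lists, by which 222 of all genes are acetylated through H3K27ac alone in WT replicate 1.

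*Kat2a*, the targeted gene, had promoter peaks of H3K4me3 in every library, with fold enrichments of 6.50 and 3.52 in WT (replicates 1 and 2 throughout) and 6.36 and 10.8 in KO. Its H3K9ac peaks reached 8.0 and 4.58 in WT and 7.48 and 11.8 in KO. As listed, the genotypes overlapped for both marks, and a promoter peak does not check the excision within the gene. Among markers of the myeloid lineage and of *MLL-AF9* leukemia, 8 of 10 had promoter H3K9ac in all 4 libraries, and *Mpo* and *Elane*, which encode granule proteins, lacked it in KO replicate 1 alone. None of 4 B cell and none of 4 T and NK cell markers had H3K9ac in any library. Of 4 erythroid markers 2 and 0 had it in the WT replicates against 2 and 3 in the KO replicates, 2 of 3 megakaryocyte markers had it in each library, and so did 1 of 4 endothelial and stromal markers, *Col1a1*. Myeloid promoters were thus acetylated and lymphoid ones were not, and the part of the other marrow lineages in the results was not tested.

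Of the 7 inhibitor genes, 5 had promoter H3K9ac in all 4 libraries (*Cdkn1a*, *Cdkn1b*, *Cdkn2a*, *Cdkn2c*, *Cdkn2d*), beside 49.4% of all protein-coding genes. H3K4me3 was listed in all 4 libraries at 6 members, the same genes and *Cdkn2b*, beside 46.7% of all genes. When a peak had to share 50% of the shorter interval, or only the outermost start was read, H3K9ac in all 4 libraries was left at 4 members, without *Cdkn1a*. H3K4me3 was left at 4 with the 50% overlap, without *Cdkn1a* and *Cdkn2d*, and at 5 with the outermost start, without *Cdkn1a*. At a −log10 q of at least 5 *Cdkn2b* was the H3K4me3 call lost. H3K27ac was listed in replicate 2 of both genotypes at 4 members (*Cdkn1a*, *Cdkn1b*, *Cdkn2c*, *Cdkn2d*), beside 43.9%. The rules that set these and the following shares were shaped after the members' peaks had been seen, and the shares describe all genes under the same rule.

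Acetylated members numbered 7 and 6 in the WT replicates against 5 and 6 in the KO replicates, beside 55.4% and 53.0% of all genes in WT and 51.6% and 53.4% in KO. The WT and KO counts overlapped at 6 members. H3K9ac by itself gave the same counts, beside 54.4% and 52.7% of all genes for WT and 51.5% and 52.2% for KO, a mean of 6.5 ± 0.707 (SD, n = 2) against 5.5 ± 0.707 (SD, n = 2; two-sided exact permutation test p = 0.67). H3K4me3 was listed at 7 members in both WT libraries and at 6 in both KO libraries (exact permutation test p = 0.33), beside 55.6% and 48.7% of all genes for WT and 51.8% and 53.0% for KO, and 0.33 is the smallest p that 2 libraries against 2 can give. The difference of 1 member in each mark rests on *Cdkn1c*, the only member whose presence separated the genotypes. It came to 0 for H3K9ac when peaks needed a q-value of at most 0.05, and for H3K4me3 when they needed a −log10 q of at least 5.

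**Figure D1:**
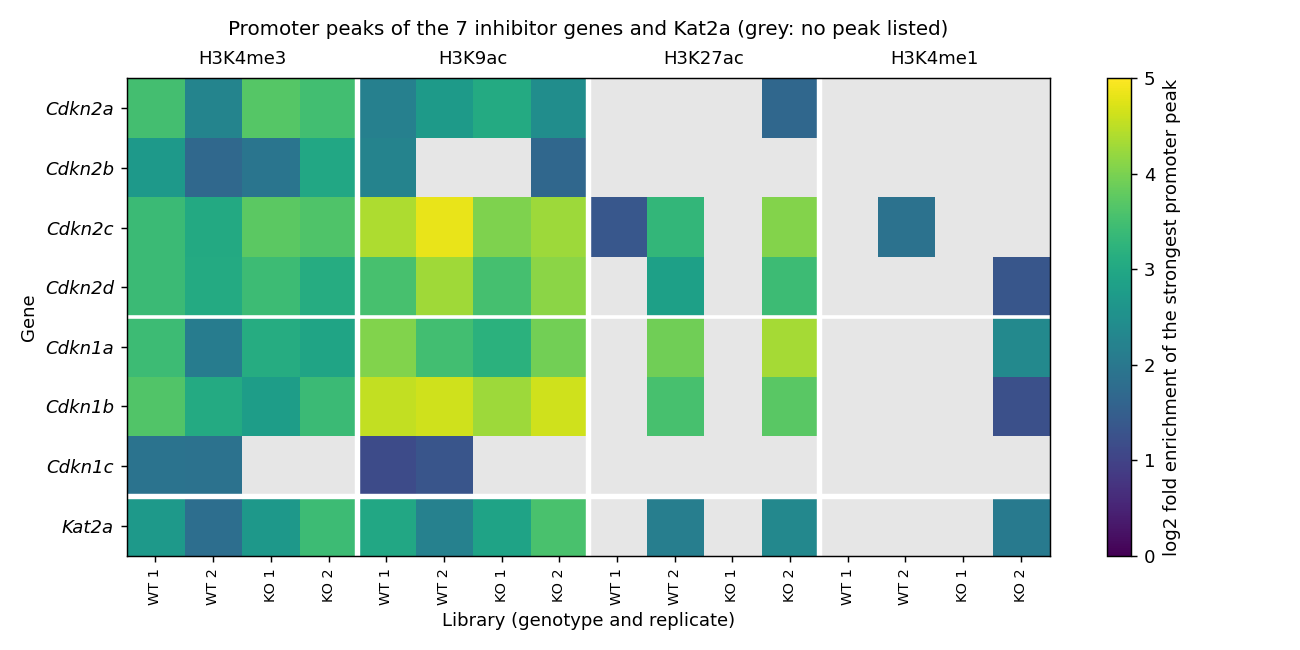
Strongest promoter peak of each inhibitor gene and of *Kat2a* (rows) in the 16 libraries (columns, by mark, genotype and replicate), colored by log2 of the authors' fold enrichment, with grey where no peak is listed. *Cdkn1c* is marked in WT alone, *Cdkn2b* carries H3K9ac in 1 library of each genotype, and the other 5 genes carry H3K4me3 and H3K9ac in all 4 libraries.

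The INK4 locus on chromosome 4 holds *Cdkn2b* and *Cdkn2a* on the minus strand. *Cdkn2a* (ENSMUSG00000044303.6, 89274471 to 89294653) has a start for Arf, a protein that stabilizes p53 by binding Mdm2, and a start for the kinase inhibitor p16Ink4a, which lies 12461 bp further downstream. *Cdkn2b* (ENSMUSG00000073802.5, 89306299 to 89311039) encodes p15Ink4b, an inhibitor that TGF-beta induces, and starts 16386 bp upstream of Arf. The bases before these 3 starts are shown because the marks differed among them. RefSeq promoters (GRCm38.p6) were matched for 6 of the 7 members, all but *Cdkn1c*, which had no entry in the promoter set used here. They were searched on both strands for GGGCGG (the GC box), CACGTG (an E-box), CCGGAAG (an ETS core) and TATAAA (the TATA box), and capitals mark the matches, none of which overlap. The stretch before the Ink4a start lies in an intron of the Arf transcript, and the stretches before the Arf and *Cdkn2b* starts lie upstream of the annotated transcripts.
Arf start, chr4:89294654-89294869, minus strand: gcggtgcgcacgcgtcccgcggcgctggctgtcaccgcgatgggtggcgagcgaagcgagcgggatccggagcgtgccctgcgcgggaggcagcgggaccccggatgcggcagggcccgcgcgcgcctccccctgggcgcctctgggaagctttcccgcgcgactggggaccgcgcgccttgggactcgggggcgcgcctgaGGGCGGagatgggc
Ink4a start, chr4:89282193-89282442, minus strand: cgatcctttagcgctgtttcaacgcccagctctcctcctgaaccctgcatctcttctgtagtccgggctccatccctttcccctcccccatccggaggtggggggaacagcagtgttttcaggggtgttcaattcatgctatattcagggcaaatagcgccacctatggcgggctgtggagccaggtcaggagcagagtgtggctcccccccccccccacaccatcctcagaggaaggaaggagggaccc
*Cdkn2b* start, chr4:89311040-89311282, minus strand: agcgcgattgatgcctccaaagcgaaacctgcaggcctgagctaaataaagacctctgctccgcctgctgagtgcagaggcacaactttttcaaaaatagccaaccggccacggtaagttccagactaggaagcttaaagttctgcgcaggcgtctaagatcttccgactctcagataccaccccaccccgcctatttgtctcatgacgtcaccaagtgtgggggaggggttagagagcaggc
The Arf stretch of 216 bases held 1 GC box and 35 CG dinucleotides, the Ink4a stretch of 250 bases no GC box and 7 CG, and the *Cdkn2b* stretch of 243 bases no GC box and 11 CG. The other motifs were not in these windows. Over the full 250 bases before the RefSeq start, the ratio of observed to expected CG was 1.08 for Arf, 0.316 for Ink4a and 0.670 for *Cdkn2b*, beside a median of 0.373 over 32851 promoters. A GC box was held by 32.7% of all promoters of 250 bases, CACGTG by 6.02%, CCGGAAG by 6.91% and TATAAA by 12.4%.

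The Arf start was acetylated in each WT and KO replicate. Its H3K9ac peaks had fold enrichments of 4.50 and 6.59 in WT and 8.30 and 5.50 in KO, and its H3K4me3 peaks 11.4 and 4.79 in WT and 12.8 and 11.1 in KO. For H3K9ac the genotypes overlapped and the values lay at percentiles 14.2 to 41.4 among the promoters with a peak in the same library, so the acetylation was of low to middling strength. For H3K4me3 the low value was WT replicate 2, and the percentiles were 78.4 and 30.3 for WT and 99.4 and 86.0 for KO. The summits of both marks lay 328 to 501 bp upstream of the start. H3K27ac was listed in KO replicate 2 alone, at 3.20 and 243 bp wide, and 5.85% of all genes had this mark in replicate 2 of KO and not of WT, a list that covered 35.8 Mb against 19.7 Mb. The call was lost with equal numbers of peaks, at a −log10 q of at least 5 and within 500 bp of the start. The reverse was found at no member and at 0.433% of all genes.

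The Ink4a start showed the reverse of the Arf start, with no acetylation in any of the 8 H3K9ac and H3K27ac lists. H3K4me3 was listed there in both KO replicates, at 3.60 and 3.48, and in neither WT replicate. The KO peaks were 305 and 252 bp wide with −log10 q of 2.32 and 2.08. Over all 93513 annotated starts of protein-coding genes, 0.181% had H3K4me3 in both KO and neither WT libraries. The Ink4a start was thus non-acetylated in KO and unmarked in WT when taken by itself, a contrast that the state of the whole gene hides and for which 1 start was singled out after its peaks had been seen.

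*Cdkn2b* was the member in which acetylation split the replicates of each genotype. H3K4me3 was listed in all 4 libraries, with 6.41 and 3.22 for WT and 3.87 and 8.0 for KO. H3K9ac was listed in WT replicate 1 at 4.71 and in KO replicate 2 at 3.16, and in neither WT replicate 2 nor KO replicate 1. The promoter was thus acetylated in WT replicate 1 and KO replicate 2 and non-acetylated in the other 2 replicates, which does not follow the genotype. At a −log10 q of at least 5 the H3K9ac call of KO replicate 2 was lost and that of WT replicate 1 remained. The 2 replicates without H3K9ac also had the weaker H3K4me3. Their libraries had the lowest H3K4me3 medians over promoters with a peak in all 4, 6.00 (WT replicate 2) and 6.42 (KO replicate 1). The medians of WT replicate 1 and KO replicate 2 were 9.21 and 7.95. Centred on these medians, log2 H3K4me3 at *Cdkn2b* was −0.90 and −0.73 in the former, against −0.52 and 0.01. This pattern of H3K9ac, 1 WT and 1 KO replicate, was found at 0.98% of all genes. No H3K27ac or H3K4me1 peak was listed at the *Cdkn2b* promoter.

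*Cdkn2c*, which encodes p18Ink4c, and *Cdkn2d*, which encodes p19Ink4d, were acetylated in each replicate. *Cdkn2c* (ENSMUSG00000028551.14) lies on chromosome 4 from 109660876 to 109667189 on the minus strand. Its H3K9ac peaks had fold enrichments of 20.9 and 28.7 in WT and 16.3 and 19.4 in KO, so both KO values lay below both WT values. Its H3K4me3 peaks had 10.7 and 8.26 in WT and 13.3 and 12.3 in KO, so here both KO values lay above. The 12.3 is that of a separate peak of 884 bp at the outer start. At the inner start KO replicate 2 had 10.6, just below WT replicate 1, so the genotypes overlapped there. The share of all promoters so separated as listed was not determined. After centring on the library medians, 14.6% of promoters with H3K9ac in all 4 libraries had both KO values below both WT values. For H3K4me3, 17.1% had both KO values above. H3K27ac in replicate 2 stood at 9.96 in WT and 16.8 in KO. The H3K9ac peaks were 4910 and 7145 bp wide in WT and 3555 and 4922 bp in KO, at percentiles 99.0 to 99.8 of peak width at promoters, and spanned both annotated starts. A weak H3K27ac peak of 80 bp in WT replicate 1, with a −log10 q of 0, adds nothing to this state. H3K4me1 was listed in WT replicate 2 alone, at 3.69, beside 4% of all genes with this mark in replicate 2 of WT and not of KO.

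*Cdkn2d* (ENSMUSG00000096472.2) lies on chromosome 9 from 21288410 to 21291407 on the minus strand. Its H3K9ac fold enrichment was 11.6 and 19.5 in WT and 11.5 and 17.5 in KO, high in replicate 2 and low in replicate 1 of each genotype. Its H3K4me3 fold enrichment was 10.6 and 8.35 in WT and 10.8 and 8.51 in KO. The genotypes overlapped for both marks, and summits lay 157 to 265 bp downstream of the nearest start in all 8 libraries. H3K27ac in replicate 2 was 7.16 in WT and 10.8 in KO.

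Among the CIP/KIP genes, *Cdkn1a* encodes p21, through which p53 halts the cell cycle. It lies on chromosome 17 from 29090976 to 29100727 on the plus strand (ENSMUSG00000023067.14) and has 5 annotated starts. The marks sat at the central pair of starts (29093769 and 29093781), and the stretches before the first of these and before the upstream start 2790 bp away are shown for the contrast, with GC boxes in capitals as above. The central stretch lies in an intron of a longer *Cdkn1a* transcript and overlaps an exon of the uncharacterised minus-strand gene *AC167363.2*.
*Cdkn1a* upstream start, chr17:29090729-29090975, plus strand: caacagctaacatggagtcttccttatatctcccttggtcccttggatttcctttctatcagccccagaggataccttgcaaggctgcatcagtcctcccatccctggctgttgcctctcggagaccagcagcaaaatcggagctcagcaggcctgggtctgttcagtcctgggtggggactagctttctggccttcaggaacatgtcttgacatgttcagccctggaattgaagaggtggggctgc
*Cdkn1a* central start, chr17:29093519-29093768, plus strand: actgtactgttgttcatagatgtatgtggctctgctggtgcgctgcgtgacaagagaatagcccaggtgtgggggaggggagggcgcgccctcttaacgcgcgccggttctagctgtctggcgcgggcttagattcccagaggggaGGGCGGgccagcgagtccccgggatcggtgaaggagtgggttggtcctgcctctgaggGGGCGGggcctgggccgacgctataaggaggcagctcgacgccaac
The upstream stretch of 247 bases held no GC box and 2 CG dinucleotides, and the central stretch of 250 bases held 2 GC boxes and 19 CG. Over 250 bases the ratio of observed to expected CG was 0.110 and 0.771. The upstream starts had no peak of H3K4me3, H3K9ac or H3K27ac in any library and an H3K4me1 peak in KO replicate 2 alone, at 3.18.

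At the central starts of *Cdkn1a*, H3K9ac had a fold enrichment of 16.5 and 11.2 in WT and 9.19 and 15.4 in KO. H3K4me3 had 10.7 and 4.29 in WT and 8.53 and 7.61 in KO. The genotypes overlapped for both marks, and the H3K4me3 value of WT replicate 2 was the lowest. H3K27ac in replicate 2 reached 15.1 in WT and 20 in KO, at percentiles 98.9 and 98.2 of the promoters with this mark, so *Cdkn1a* ranked higher for H3K27ac than for H3K9ac, for which it lay at percentiles 47.5 to 76.9. The summits of these 3 marks lay 727 to 1228 bp downstream of the start, beyond the promoter window, which ends 500 bp downstream. The promoter was called acetylated in each replicate because the peaks reach into the window. With an overlap of 50%, or at the outermost start alone, its H3K9ac and H3K4me3 calls were lost in all 4 libraries. Its H3K27ac call was lost in replicate 2 of both genotypes at the outermost start and in WT with the 50% overlap, and either choice leaves 3 members with H3K27ac in both genotypes.

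*Cdkn1b*, which encodes p27, an inhibitor of Cdk2 that accumulates in quiescent cells, lies on chromosome 6 from 134920401 to 134925513 on the plus strand (ENSMUSG00000003031.14). Its H3K9ac fold enrichment was 23.3 and 24.9 in WT and 19.4 and 24.8 in KO, at percentiles 89.3 to 94.8. These were high and close in all 4 libraries, and KO replicate 1 was the lowest. H3K4me3 had 12.4 and 8.35 in WT and 6.92 and 10.7 in KO, and H3K27ac in replicate 2 had 11.6 in WT and 13.1 in KO. The fold enrichments as listed overlapped between genotypes for H3K4me3 and H3K9ac, and the promoter was acetylated in each replicate.

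*Cdkn1c*, an imprinted gene that encodes p57, lies on chromosome 7 from 143458339 to 143461050 on the minus strand (ENSMUSG00000037664.13). It was acetylated in both WT replicates and unmarked in both KO replicates. Its H3K4me3 peaks had fold enrichments of 3.72 and 3.72 in WT, with −log10 q of 2.98 and 2.68. Its H3K9ac peaks had 2.20 and 2.50 in WT, with −log10 q of 0.52 and 0.54, at percentiles 0.452 and 0.605 of the promoters with H3K9ac in their libraries. Neither mark was listed in a KO library, and H3K27ac and H3K4me1 were listed at this promoter in no library. The H3K9ac peaks of the WT replicates shared 13 bp and lay toward the inner starts, whereas the H3K4me3 peaks lay at the outer starts, and the H3K9ac peaks also overlapped the promoter of *Gm44732*, an antisense gene.

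H3K9ac in both WT and neither KO libraries was found at 0.647% of all genes, with *Cdkn1c* as the only member, and the reverse pattern at 0.173%, with no member. H3K4me3 in both WT and neither KO libraries was found at 0.346% of all genes, again with *Cdkn1c* as the only member. For both marks together the share was 0.0228%, which is 5 genes. The H3K9ac call at *Cdkn1c* was lost in both WT libraries at a q-value of at most 0.05, with equal numbers of peaks per library and at the outermost start. Its H3K4me3 call was kept at that q-value, was lost in WT replicate 1 with equal numbers of peaks and was lost in both at a −log10 q of at least 5. Whether fewer cells carried a mark or each carried less of it cannot be told apart in pooled marrow, here as at the other promoters.

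**Figure D2:**
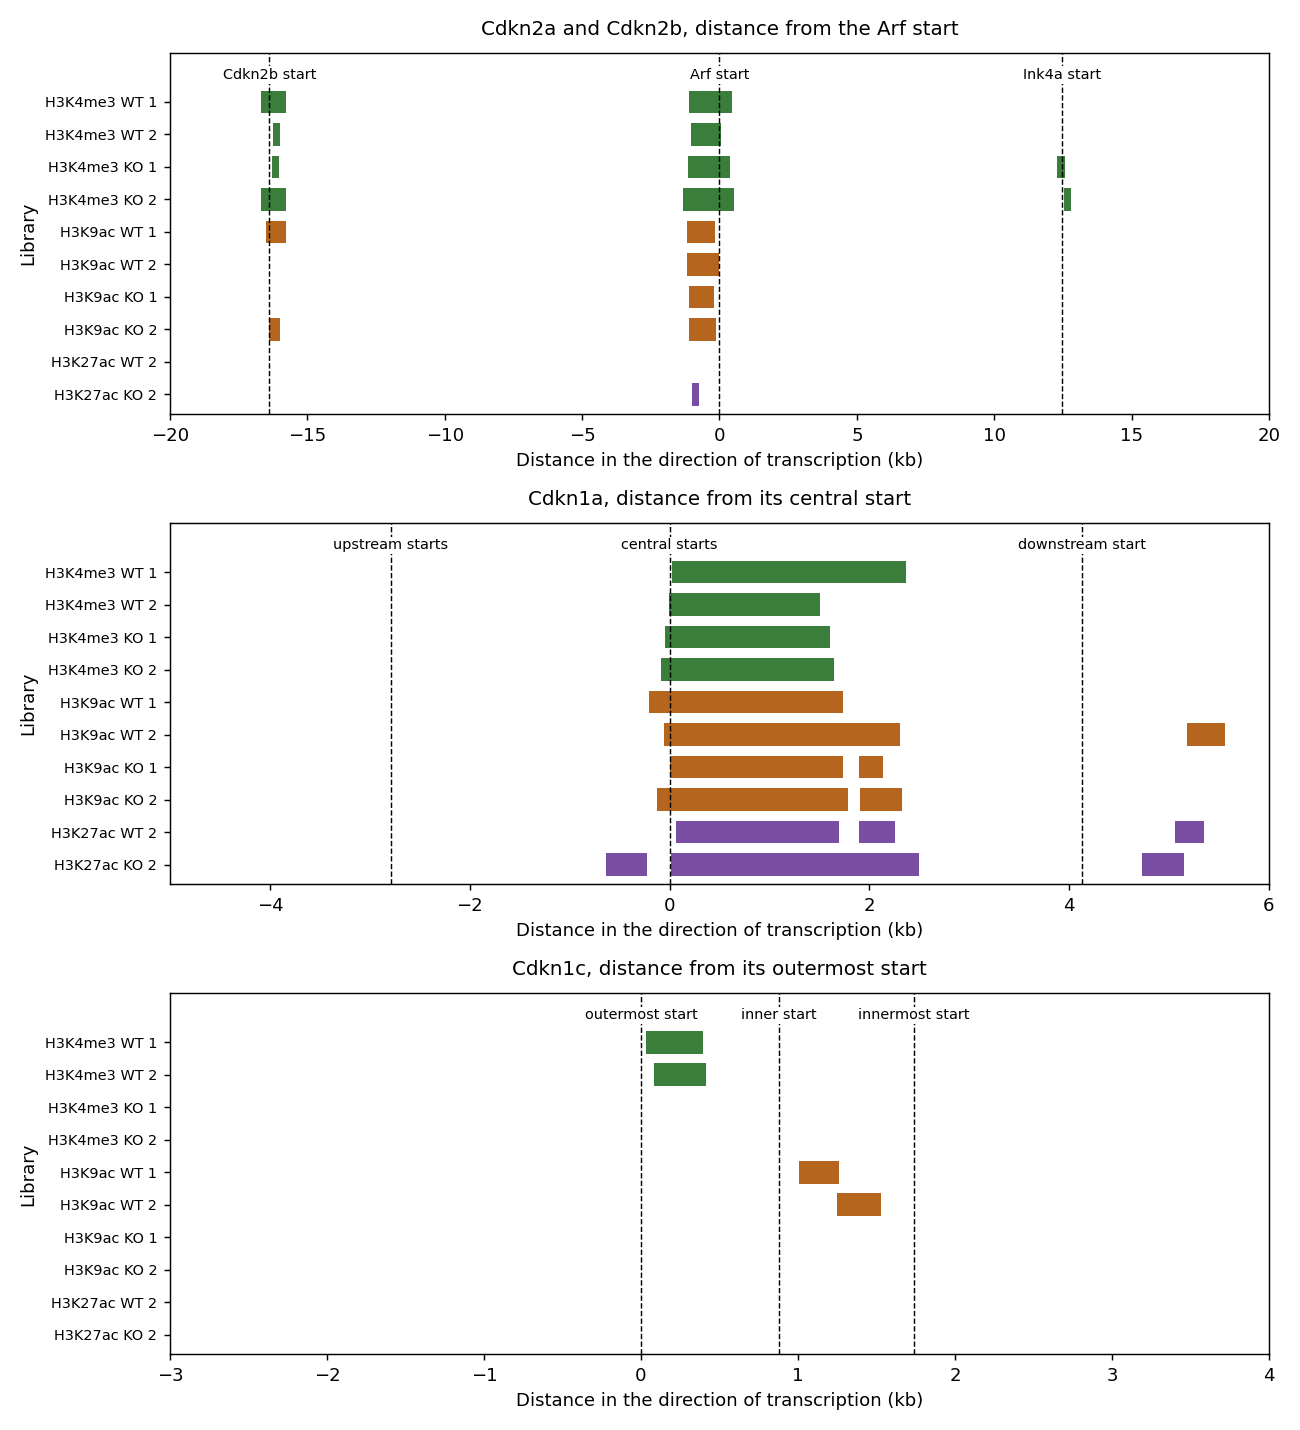
Peaks of H3K4me3, H3K9ac and replicate 2 of H3K27ac (bars, 1 row per library) at *Cdkn2a* and *Cdkn2b*, *Cdkn1a* and *Cdkn1c*, against the distance in kb from the named start in the direction of transcription, with starts as dashed lines. The Arf start is acetylated in all 4 H3K9ac libraries and the Ink4a start in none, the central *Cdkn1a* starts are marked in each row and the upstream starts in none, and *Cdkn1c* has peaks in WT rows alone.

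H3K4me1 at promoters was listed in replicate 2 at 1 member in WT (*Cdkn2c*) and at 3 members in KO (*Cdkn1a*, *Cdkn1b*, *Cdkn2d*). The shares of all genes with this mark were 18.4% in the WT library and 37.2% in the KO library. Of all genes, 22.9% had this mark in replicate 2 of KO and not of WT. The KO list covered 42.2 Mb and the WT list 11.5 Mb, and with equal numbers of peaks each genotype had 1 member. At a q-value of at most 0.05 there was none in WT and 1 in KO, *Cdkn1a*.

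Promoter strength was compared between genotypes with limma on log2 fold enrichment, centred on the median of each library, over all promoters with a peak in all 4 libraries. Of the 7 members 6 could be fitted for H3K4me3, which leaves out *Cdkn1c*, and 5 for H3K9ac, which leaves out *Cdkn1c* and *Cdkn2b*. At an adjusted p under 0.05, limma called 0 of 10247 promoters for H3K4me3 (0% in each direction), with 259 higher and 304 lower in KO at an unadjusted p under 0.05. It called 0 of 10837 for H3K9ac (0% in each direction), with 201 higher and 192 lower at an unadjusted p under 0.05. No member passed the test in either mark, and none had an unadjusted p under 0.05.

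The largest log2 difference among the members was that of *Cdkn2a* in H3K4me3, 0.75 higher in KO (SE 0.37, limma adjusted p = 0.89), followed by *Cdkn2c* with 0.50 (SE 0.36). This order depended on single libraries. The *Cdkn2a* value ranged from 0.44 without WT replicate 2, where *Cdkn2c* led with 0.63, to 1.07 without WT replicate 1, and was 0.50 without KO replicate 1, where *Cdkn2b* led with 0.72. The differences in H3K4me3 were 0.35 for *Cdkn2b*, 0.31 for *Cdkn1a*, 0.08 for *Cdkn2d* and −0.19 for *Cdkn1b*. In H3K9ac they were 0.40 for *Cdkn2a* (SE 0.38), −0.37 for *Cdkn2c* (SE 0.37), −0.11 for *Cdkn1a*, −0.05 for *Cdkn1b* and 0.00 for *Cdkn2d*, whose sign turned with the scaling. The median over the members was 0.33 for H3K4me3 and −0.05 for H3K9ac, beside 0.00 and 0.01 over all promoters fitted. With a library left out the median over the members ranged from 0.18 to 0.48 for H3K4me3 and from −0.15 to −0.01 for H3K9ac. *Kat2a* itself had 0.85 and 0.72, neither of which passed (adjusted p = 0.88 and 1.0 with limma). The first had an unadjusted p under 0.05, and after centring both KO libraries lay above both WT libraries at *Kat2a* in both marks, unlike the values as listed.

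After centring, both KO libraries lay above both WT libraries in H3K4me3 at *Cdkn2a* and *Cdkn2c*, 2 of 6 members, beside 17.1% of all promoters fitted, and below at *Cdkn1b*, beside 17.6%. As listed, the genotypes overlapped in H3K4me3 at *Cdkn2a* and *Cdkn1b*. At *Cdkn1b* the nearest centred values were 0.422 (KO replicate 2) and 0.432 (WT replicate 1). In H3K9ac both KO libraries lay below both WT libraries at *Cdkn2c*, 1 of 5 members, beside 14.6%, and above at no member, beside 16.6%. The *Cdkn2c* values had opposite signs in the 2 marks, but neither passed the test. With a library left out they ranged from 0.29 to 0.72 in H3K4me3 and from −0.59 to −0.15 in H3K9ac. Other values depended on 1 library. Without WT replicate 2 the H3K4me3 difference of *Cdkn1a* was −0.04, and without KO replicate 2 that of *Cdkn2b* was −0.02. Without KO replicate 1 the H3K9ac difference of *Cdkn2a* was −0.04.

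**Figure D3:**
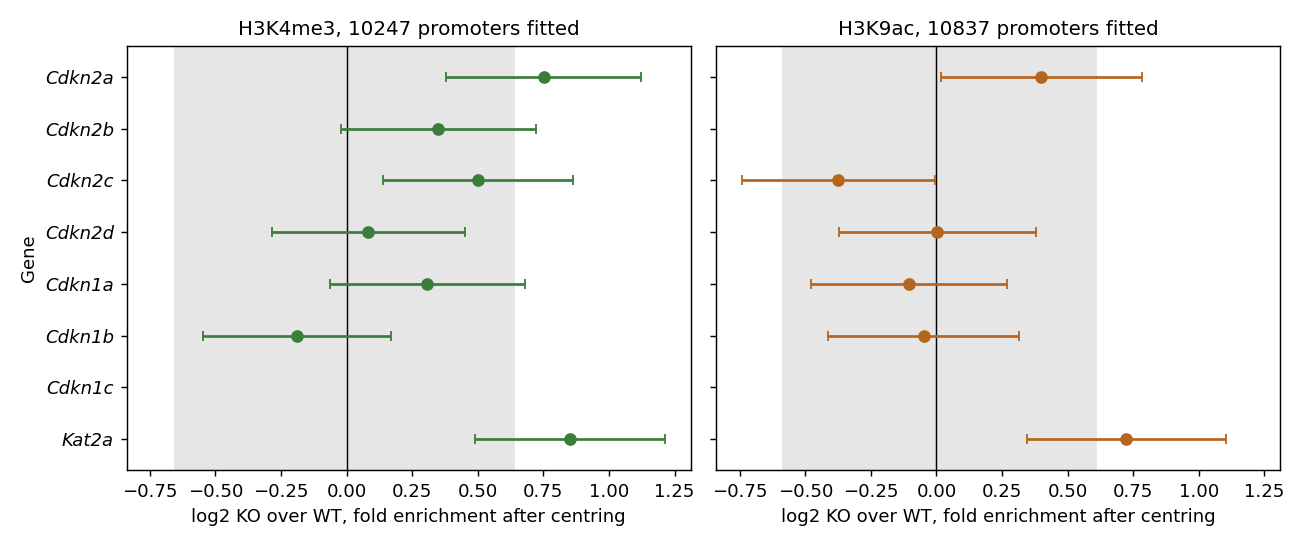
Difference between KO and WT in promoter fold enrichment (log2, after centring) for the inhibitor genes and *Kat2a*, with points for the limma estimate and bars for 1 SE, and in grey the range from the 5th to the 95th percentile of all promoters fitted. *Cdkn2a* in H3K4me3 lies just above the grey range at 0.75, the other members lie within it, and *Cdkn1c*, and *Cdkn2b* in H3K9ac, were not fitted.

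Peaks were also counted in the gene bodies and 20 kb on either side, which merge into 6 regions because the windows of *Cdkn2a* and *Cdkn2b* overlap, of 303458 bp together. H3K9ac covered 40.7 and 45.4 kb of these in WT and 32.5 and 39.8 kb in KO, so both KO values lay below both WT values. The whole H3K9ac lists covered 26.8 and 28.9 Mb in WT and 20.7 and 24.7 Mb in KO, and per kb of the whole list the windows held 1.52 and 1.57 bases in WT and 1.57 and 1.62 in KO. Relative to the list the genotypes thus overlapped, with the highest value in KO. With lists cut to equal numbers of peaks the ratio of covered length, KO over WT, was 0.866, against 0.840 with all peaks. The genotypes then overlapped too, with 39690 and 43887 bp in WT and 32492 and 39849 bp in KO. H3K4me3 covered 33.8 and 19.5 kb in WT and 21.6 and 26.1 kb in KO, and the genotypes overlapped. Per kb of the whole H3K4me3 list this was 1.81 and 1.95 bases for WT against 1.66 and 1.77 for KO, both KO values below both WT values, and this was not tested. In replicate 2, H3K27ac covered 26.2 kb in WT and 40.2 kb in KO, and H3K4me1 2.79 kb and 16.4 kb, in the direction of the longer KO lists. Per kb of the list H3K27ac was lower in KO (1.33 bases for WT against 1.12), whereas H3K4me1 was still higher (0.242 against 0.388).

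The windows differed in how much of them was marked. H3K9ac covered 21.9% to 37.2% of the *Cdkn2c* window and 22.5% to 25.9% of the *Cdkn1b* window over the 4 libraries, 12.3% to 17.7% at *Cdkn1a* and 12.0% to 14.5% at *Cdkn2d*. At *Cdkn2a* it covered 1.49% to 2.92%, and at *Cdkn1c* 0.588% and 1.54% in WT and none in KO. Peaks of other genes added to this. *Faf1* and the noncoding *9630013D21Rik* near *Cdkn2c* had promoter H3K9ac in all 4 libraries, as did *Lockd* and *Gm44238* near *Cdkn1b*, *Kri1* near *Cdkn2d*, and *Rab44* and *AC167363.2* near *Cdkn1a*. *Trp53cor1*, a noncoding RNA upstream of *Cdkn1a*, had it in 3 libraries and *Ap1m2* near *Cdkn2d* in none. *Slc22a18*, an imprinted neighbour of *Cdkn1c*, had H3K9ac in WT replicate 2 alone, and *Gm12606* beside *Cdkn2a* in no library.

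**Figure D4:**
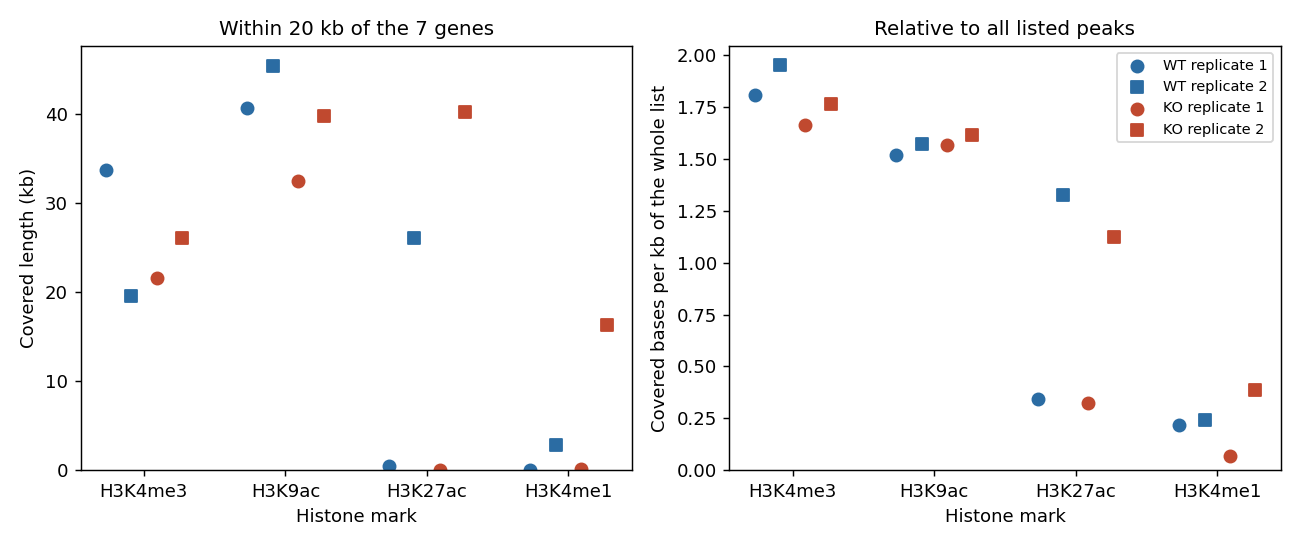
Length covered by peaks within the inhibitor genes and 20 kb on either side (left, kb) and the same per kb of each whole list (right, bases), by mark, with 1 point per library, blue for WT, red for KO, circles for replicate 1 and squares for replicate 2. H3K9ac covers 40.7 and 45.4 kb in WT and 32.5 and 39.8 kb in KO, whereas per kb of the list the WT values of 1.52 and 1.57 and the KO values of 1.57 and 1.62 overlap.

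Distal H3K4me1 peaks, which lie in these windows outside any promoter, numbered 12 in the WT library of replicate 2 and 28 in the KO library. Of these, 5 in WT and 13 in KO overlapped H3K9ac or H3K27ac of the same genotype and replicate, which is 41.7% and 46.4%. Both the number and the share depended on the threshold. At a q-value of at most 0.05, 1 of 4 was acetylated in the WT library (25%) and 12 of 22 in the KO library (54.5%), and with equal numbers of peaks 5 of 12 (41.7%) and 9 of 11 (81.8%). A single library per genotype allows no test. The acetylated share of all distal H3K4me1 peaks was not determined, so these counts and shares have no background beside them. The H3K4me1 list of replicate 2 covered 42.2 Mb in KO and 11.5 Mb in WT. Acetylated elements lay near *Cdkn1a* (4 in WT and 6 in KO) and *Cdkn1b* (1 and 2) in both genotypes, and near *Cdkn2c* (2) and *Cdkn2d* (3) in KO alone. None lay near *Cdkn1c*, *Cdkn2a* or *Cdkn2b*. The *Cdkn1a* elements 17.2 to 19.6 kb downstream of its nearest start lie within *Rab44*. Those near *Cdkn2d* lie within *Kri1* or *Ap1m2*, 1 near *Cdkn2c* lies within *Faf1* and 1 near *Cdkn1b* in KO lies within *Lockd*. Which gene an element serves was not tested. Near *Cdkn1a* an element 1.06 kb downstream of its nearest start in WT, with H3K9ac and H3K27ac, had a counterpart at 1.10 kb in KO, with H3K27ac alone. In replicate 1, 0 of 1 distal peak was acetylated in each genotype.

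The other genes of the pathway, 48 from a fixed list, were acetylated at 47 promoters in each genotype and replicate. H3K9ac was listed in all 4 libraries at 12 of 13 kinase and cyclin genes, 13 of 13 genes of the retinoblastoma and E2F group, 10 of 10 regulators of inhibitor levels, 9 of 9 Polycomb genes and their opponents and 3 of 3 genes that share the name stem. The exception was *Ccna1*, a cyclin known from germ cells, which had H3K4me3 and H3K4me1 in KO replicate 2 alone. The highest mean H3K9ac fold enrichments were those of *Mdm2* (27.4), the ubiquitin ligase of p53, and of *Ezh2* (25.4) and *Eed* (23.2), subunits of a Polycomb complex that represses the INK4 locus. H3K9ac in all 4 libraries was thus listed at 5 of 7 inhibitor genes, 47 of 48 pathway genes and 49.4% of all genes, and the difference was not tested. With limma 0 of 44 pathway promoters passed for H3K4me3 and 0 of 47 for H3K9ac. At an unadjusted p under 0.05, 1 was lower in H3K4me3 (*Ccnb1*, −0.80) and 2 in H3K9ac (*Cdk6*, −0.79, and *Kdm6b*, −1.23), beside 304 of 10247 and 192 of 10837 promoters. Both H3K9ac values rested on WT replicate 2, without which they were −0.37 and −0.26, and without it *Ccnb1* had −0.56. The median log2 difference of the list was 0.03 and 0.05.

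By the presence of promoter peaks over the 16 libraries, *Cdkn1a*, *Cdkn1b* and *Cdkn2d* had the same pattern, which they shared with 2274 other genes (10.4%), among them 14 of the pathway list such as *Ccna2*, *Cdk1* and *Cdk2*. *Cdkn2c* differed in 1 library from 7 genes of the list, *Ccnb2*, *Foxo3* and *Mdm2* among them, and 111 other genes had its exact pattern. Without replicate 1 of H3K27ac and H3K4me1, a choice made after seeing the data, it had the pattern of *Ccnb2*, *Mdm2* and 3 more genes of the list, and of 516 other genes in all, because its weak H3K27ac peak in WT replicate 1 no longer counted. *Cdkn2a* shared its pattern with 237 other genes, *Ccnd1* among them. Within the pathway list *Cdkn2b* came closest to *E2f5*, from which it differed in 2 libraries, and 4 other genes shared its pattern. *Cdkn1c* came closest to *E2f5* within that list, with 4 libraries different, as many as from *Cdkn2b*, and 2 other genes shared its pattern. Ordered by mean H3K9ac fold enrichment in WT, *Cdkn2c* (24.8 ± 5.46, SD, n = 2) and *Cdkn1b* (24.1 ± 1.14, SD, n = 2) led and did not differ beyond their spread. *Cdkn2d* (15.6 ± 5.53, SD, n = 2) and *Cdkn1a* (13.9 ± 3.80, SD, n = 2) followed within their spread of each other, then *Cdkn2a* (5.55 ± 1.48, SD, n = 2) and *Cdkn1c* (2.35 ± 0.207, SD, n = 2). In KO the order of the means was *Cdkn1b* (22.1 ± 3.83, SD, n = 2), *Cdkn2c* (17.8 ± 2.14, SD, n = 2), *Cdkn2d* (14.5 ± 4.21, SD, n = 2), *Cdkn1a* (12.3 ± 4.36, SD, n = 2) and *Cdkn2a* (6.90 ± 1.97, SD, n = 2). From *Cdkn1b* to *Cdkn1a* the KO values of each gene overlapped those of the next across the 2 libraries. Within KO replicate 1 and within KO replicate 2 the genes had this same order, which was not tested. *Cdkn2b*, with H3K9ac in 1 library per genotype, was not ranked.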

How the data were processed

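Peak lists of 16 ChIP-seq libraries were used, grouped by the labels. The authors used BWA for alignment (mm10) and MACS2 for peaks of each library; versions are not given in the sources used here. Each deposited list gives the fold enrichment at the summit as a ratio, −log10 of p and of q, and a score. The lists reach a p of 0.01, looser than the q-value limit in the methods, and all listed peaks were used. Input libraries were not analysed here. The members and gene lists were chosen with earlier results of these data known.

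Peaks were set against GENCODE release M21 with an overlap of 1 bp, and positions count from 1. Named genes were the members, *Kat2a*, pathway genes without acetylation in replicate 2 of a genotype, the 3 pathway genes with the highest mean H3K9ac, the nearest patterns and neighbours within 20 kb. Outside this rule, pathway genes with an unadjusted p under 0.05 and 3 markers were named after seeing their values. Counts were compared by exact permutation, strength by limma 3.58.1 (R 4.3.3) with Benjamini-Hochberg adjustment over all promoters fitted. Python 3.11.15, numpy 2.4.6, scipy 1.17.1 and matplotlib 3.10.9 were used. Interval code was tested on simulated data against bedtools 2.31.1. Alternatives were stricter thresholds, overlaps, starts, windows, equal lists, scaling, left-out replicates and a replicate block.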

Additional observations from a re-analysis of the deposited data

How the results depend on the processing

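Differences are KO minus WT in members with a promoter peak. For H3K9ac the difference of −1 came to 0 at a q-value of at most 0.05, with equal numbers of peaks and at the outermost start, and so did the count of acetylated members. For H3K4me3 the −1 came to 0 at a −log10 q of at least 5 and to −0.5 with equal numbers of peaks. At that −log10 q the differences in H3K9ac and in acetylated members were −0.5. For H3K27ac the difference of 1 came to 0 at that −log10 q, with equal numbers of peaks and within 500 bp of the start, and to 2 with an overlap of 50%. For H3K4me1 the difference of 2 came to 1 at both q-value limits and to 0 with equal numbers of peaks. Over the mean of both replicates, chosen after seeing the data, it was 0 for H3K27ac and 1 for H3K4me1. With a replicate left out, it ranged from −1 to 1 for H3K27ac and from 0 to 2 for H3K4me1, and from −1.5 to −0.5 for H3K9ac. Members with H3K9ac in all 4 libraries numbered 4 instead of 5 with an overlap of 50% and at the outermost start, where *Cdkn1a* was lost. The cause of these shifts was not tested.

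The ratio of covered length, KO over WT, was 0.894 for H3K4me3, 0.840 for H3K9ac, 1.54 for H3K27ac and 5.86 for H3K4me1. With a replicate left out it ranged from 0.639 to 1.34, from 0.798 to 0.877, from 0.0928 to 1.54 and from 1.54 to 5.86. For H3K4me1 it was 17.5 at a q-value of at most 0.05 and 3.36 with equal numbers of peaks. Acetylated distal elements numbered 2 in WT and 6 in KO within 10 kb, 7 and 26 within 50 kb, 1 and 12 at a q-value of at most 0.05, and 5 and 9 with equal numbers of peaks. Without the *Cdkn1a* window, an alternative chosen after seeing the data, they numbered 1 and 7, and with a replicate left out 0 to 5 and 0 to 13.

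With limma, 0 promoters were called for H3K4me3 under every alternative, and for H3K9ac 2 without WT replicate 1 and 0 otherwise, a range of 0 to 2. With the replicate block both counts were 0 (579 and 542 at an unadjusted p under 0.05), and the differences in members remained −1 for both marks (paired exact p = 0.50 for H3K4me3 and 1.0 for H3K9ac). Residuals of the same replicate number correlated by −0.00 and 0.13. Replicate 1 of H3K27ac and H3K4me1 was weak in both genotypes, and the labels do not say whether a number marks a shared round of work. Of 130 values of single members, 118 kept their direction. The H3K9ac difference of *Cdkn2d* was −0.0169 with quantile normalisation, −0.0852 without centring and −0.0243 with the overlap-weighted mean. With a library left out, the H3K4me3 difference ranged from −0.0424 to 0.66 for *Cdkn1a*, −0.35 to −0.03 for *Cdkn1b*, 0.44 to 1.07 for *Cdkn2a*, −0.0205 to 0.72 for *Cdkn2b*, 0.29 to 0.72 for *Cdkn2c* and −0.24 to 0.41 for *Cdkn2d*. The H3K9ac difference ranged from −0.40 to 0.18 for *Cdkn1a*, −0.09 to −0.01 for *Cdkn1b*, −0.0409 to 0.84 for *Cdkn2a*, −0.59 to −0.15 for *Cdkn2c* and −0.36 to 0.37 for *Cdkn2d*. A group left with 1 library is assumed to vary like the other. Depth is unknown and limits every absence of a peak.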
